A study of Mus musculus with 12 samples.

Results

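The core circadian clock genes were followed in abdominal fat of 12 mice, with 1 array per animal. Members were picked by gene symbol, with earlier results of these data known: Arntl (also written Bmal1), Clock, Per1, Per2, Per3, Cry1, Nr1d1, Nr1d2, Dbp and Bhlhe40. All 10 were measured, each by 1 probe set, among 23185 named genes. The mice were 12 weeks old and carried the db mutation of the leptin receptor gene (strain background BKS.Cg-Dock7m +/+ Leprdb/J). The animals received adenovirus that coded for short hairpin RNAs (shRNAs), which lower the RNA they are directed at, and fat was taken 1 week later. The TSC22D4 group received 2e9 plaque-forming units of TSC22D4 shRNA virus with 2e9 of control shRNA virus. The LCN13 group received 2e9 of LCN13 shRNA virus with 2e9 of control virus, and the group given both shRNAs received 2e9 of each of these viruses and no control virus. Control animals, which the labels write as WT although they are of the same strain, received 4e9 of control virus. Each group is represented by 3 arrays out of 7 animals, which the submitters call representative. More shRNA virus always came with less control virus, so the effects of the one and the other cannot be told apart.

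In the clock, the proteins of Clock and Arntl pair up and switch on Per, Cry, Nr1d and Dbp genes through a DNA element called the E-box. Per and Cry proteins then block that pair, while the Nr1d receptors (REV-ERBs) repress Arntl, so that in mouse fat Arntl RNA is high when Dbp and Nr1d1 RNA are low, and the reverse, once a day. The labels give a light-dark cycle of 12 h each way. The hour of collection of each animal is not given in the sources used here, and its part in the values below was not tested.

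The promoters are shown as background, because these elements are textbook sites through which clock proteins act on clock genes. Whether they bear on the levels described below was not tested. RefSeq promoter windows (build GRCm38.p6) were found for 8 of the 10 members, as 12 windows, since Clock, Arntl and Per1 have several annotated starts; Per2 and Bhlhe40 are named only. Each window was read over the 250 bases before the annotated start, on both strands, for the E-box CACGTG, the D-box TTANGTAA, to which Dbp protein binds, and the core TAGGTCA of the element bound by Nr1d and Ror receptors. These motifs do not overlap one another in the windows printed. Of all 32851 windows of this length, 6.02% held CACGTG, 2.06% held TTANGTAA and 2.23% held TAGGTCA. Matches, in capitals, were found in 3 windows of members: an E-box in that of Per1 (chr11:69098699-69098948, plus strand), an E-box in that of Cry1 (chr10:85185055-85185304, minus strand) and a pair of D-boxes in that of Per3 (chr4:151044666-151044915, minus strand).
Per1: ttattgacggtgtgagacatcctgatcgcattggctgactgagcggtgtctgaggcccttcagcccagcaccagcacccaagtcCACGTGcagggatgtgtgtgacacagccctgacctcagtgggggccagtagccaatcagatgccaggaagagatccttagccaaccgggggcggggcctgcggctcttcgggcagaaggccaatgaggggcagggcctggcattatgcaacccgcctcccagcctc
Cry1: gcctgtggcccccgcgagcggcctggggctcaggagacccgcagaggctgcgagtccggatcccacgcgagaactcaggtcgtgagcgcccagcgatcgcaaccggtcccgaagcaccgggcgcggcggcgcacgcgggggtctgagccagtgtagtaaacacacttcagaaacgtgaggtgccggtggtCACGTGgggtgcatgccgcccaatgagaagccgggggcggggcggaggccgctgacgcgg
Per3: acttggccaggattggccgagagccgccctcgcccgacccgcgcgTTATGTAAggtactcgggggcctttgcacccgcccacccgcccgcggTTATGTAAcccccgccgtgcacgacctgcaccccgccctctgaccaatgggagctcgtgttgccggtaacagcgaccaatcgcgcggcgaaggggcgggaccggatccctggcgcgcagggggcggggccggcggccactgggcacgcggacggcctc
The Per1 E-box began 166 bases before the start and the Cry1 E-box 60 bases before it. The D-boxes of Per3 began 205 and 158 bases before its start and were the same 8-letter word, TTATGTAA. A match describes these letters and is not evidence of binding in these animals.

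Values are the authors' log2 levels (RMA), and 1 unit is a doubling. Levels of different genes come from different probe sets and are not set against each other. The shRNA targets came first as a check of the labels: Tsc22d4 lay between 7.56 and 7.88 over all arrays, with a log2 change of -0.074 ± 0.081 (SE, limma adjusted p = 0.888) with both shRNAs against control and -0.0074 ± 0.081 (limma adjusted p = 0.989) with TSC22D4 shRNA against control. The probe set of Lcn13 carries the symbol Obp2a. Its levels, 5.71 to 5.79, are among the dimmest on the arrays, where a fall could hardly be seen. Neither target was therefore measurably lower in this tissue, and the groups are named by the virus given. Adipocyte genes were present, with 12-array means of 10.0 to 14.0 over the 9 of 10 listed markers that were measured, among them Adipoq and Plin1. In a whole-tissue sample, fewer cells of a type and less RNA per cell cannot be told apart.

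Within 3 of the 4 groups the clock genes disagreed between animals of the same treatment. Control replicates 1 and 2, TSC22D4 replicate 10 and replicate 16 of the group given both shRNAs stood apart: they were the 4 lowest of the 12 arrays for Per1, Per2, Per3, Nr1d1, Nr1d2, Dbp and Bhlhe40, and the 4 highest for Arntl. This held for 8 of the 10 members, and Clock and Cry1 were the exceptions. The control group holds 2 of these arrays, the TSC22D4 group 1, the group given both shRNAs 1 and the LCN13 group none. The 4 arrays were recognised from the clock genes themselves, so they are described array by array and are neither averaged nor tested as a group. The comparisons below also carry log2 changes from a fit without them. That fit keeps 1 control array and leaves out arrays chosen by these same genes, so its p-values could not test the members.

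**Figure D1:**
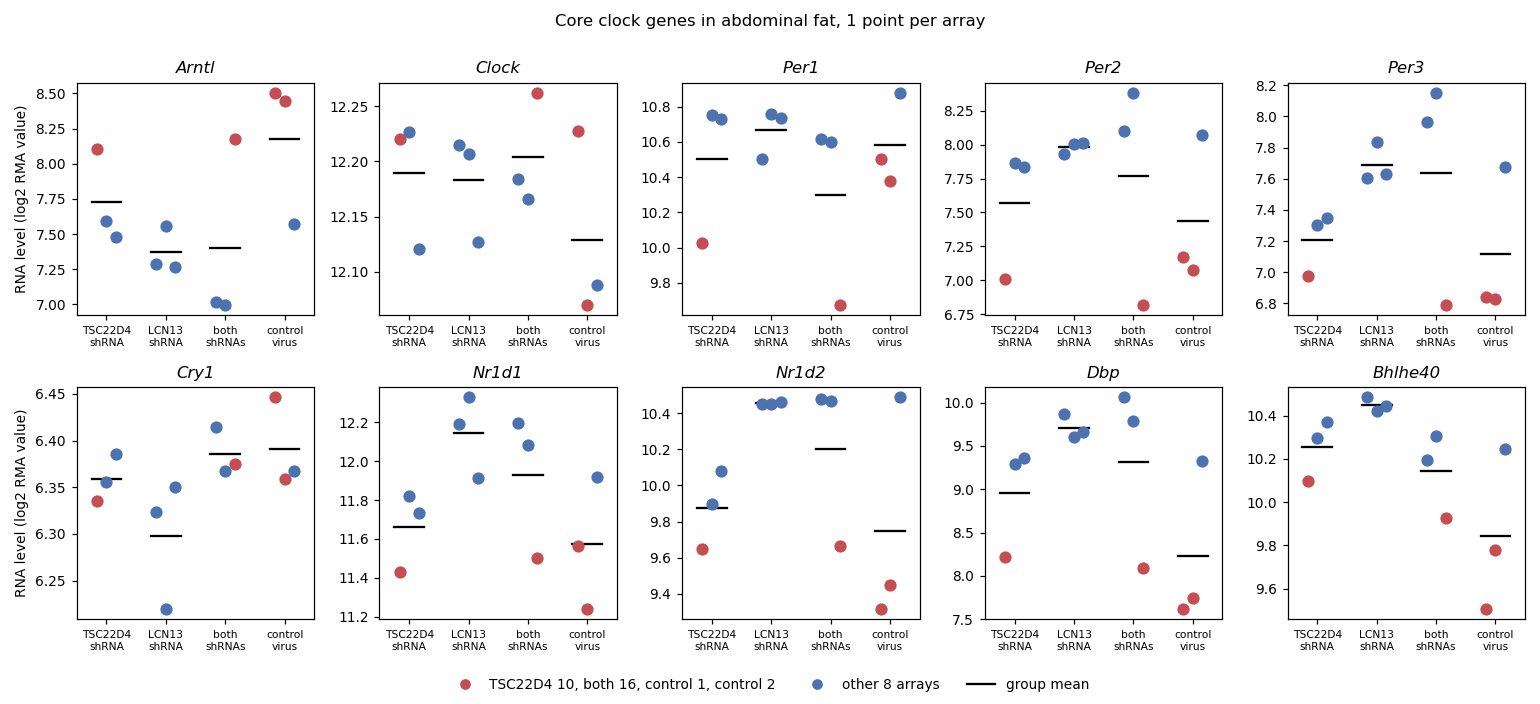
RNA level (log2 RMA value, one vertical scale per gene) of the 10 core clock genes in each array, by shRNA group, with the group mean as a line. Red points are TSC22D4 replicate 10, replicate 16 of the group given both shRNAs and control replicates 1 and 2; they sit below all 8 blue points for 7 genes and above them for Arntl, with a gap of 1.08 for Dbp and 0.0045 for Per1.

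Arntl and Clock encode the activating pair. Arntl was at 8.11, 7.59 and 7.48 in TSC22D4 replicates 10, 11 and 12, at 7.28, 7.56 and 7.27 in LCN13 replicates 5, 6 and 8, at 7.02, 7.00 and 8.18 in replicates 13, 14 and 16 given both shRNAs, and at 8.50, 8.45 and 7.57 in control replicates 1, 2 and 3. The 4 arrays named above lay at 8.11 or higher and the other 8 at 7.59 or lower, a gap of 0.51 log2. Control replicate 3 lay with the LCN13 arrays and not with the other controls. Clock was at 12.22, 12.23 and 12.12 in TSC22D4 arrays, 12.21, 12.21 and 12.13 in LCN13 arrays, 12.18, 12.17 and 12.26 in arrays given both shRNAs, and 12.23, 12.07 and 12.09 in control arrays. All 12 Clock values fell within 0.19 log2, and the highest and the lowest both came from the 4 arrays that stood apart in the other genes.

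The Per genes and Cry1 encode the proteins that block that pair. Per2 was at 7.01, 7.86 and 7.84 in TSC22D4 arrays, 7.93, 8.01 and 8.02 in LCN13 arrays, 8.11, 8.38 and 6.82 in arrays given both shRNAs, and 7.17, 7.07 and 8.07 in control arrays. The 4 low arrays were separated from the other 8 by 0.67 log2, while the 3 LCN13 arrays lay close together (SD 0.045). Per3 was at 6.98, 7.30 and 7.35 in TSC22D4 arrays, 7.60, 7.84 and 7.63 in LCN13 arrays, 7.96, 8.15 and 6.79 in arrays given both shRNAs, and 6.84, 6.83 and 7.67 in control arrays. Its gap was 0.33, and TSC22D4 replicates 11 and 12 lay just above it, below every LCN13 array. Per1, the Per gene that also answers quickly to hormones and other acute signals, was at 10.03, 10.76 and 10.73 in TSC22D4 arrays, 10.51, 10.76 and 10.74 in LCN13 arrays, 10.62, 10.60 and 9.68 in arrays given both shRNAs, and 10.50, 10.38 and 10.88 in control arrays. For Per1 the split was marginal: control replicate 1 and LCN13 replicate 5 differed by 0.0045. Cry1 was at 6.33, 6.36 and 6.39 in TSC22D4 arrays, 6.32, 6.22 and 6.35 in LCN13 arrays, 6.41, 6.37 and 6.38 in arrays given both shRNAs, and 6.45, 6.36 and 6.37 in control arrays. These levels lie at the 49.8th percentile of all genes, close to the lower end of the scale, where RMA values are compressed, and they spanned only 0.23.

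Nr1d1 and Nr1d2 encode the REV-ERB receptors that repress Arntl. Nr1d1 was at 11.43, 11.82 and 11.73 in TSC22D4 arrays, 12.19, 12.33 and 11.92 in LCN13 arrays, 12.20, 12.08 and 11.50 in arrays given both shRNAs, and 11.56, 11.24 and 11.92 in control arrays. Nr1d2 was at 9.65, 9.90 and 10.08 in TSC22D4 arrays, 10.45, 10.45 and 10.46 in LCN13 arrays, 10.48, 10.47 and 9.66 in arrays given both shRNAs, and 9.32, 9.45 and 10.49 in control arrays. For Nr1d2 the LCN13 arrays were nearly identical (SD 0.0063, n = 3), and control replicate 3 and replicates 13 and 14 of the group given both shRNAs lay at the same level, whereas TSC22D4 replicates 11 and 12 lay between these and the 4 low arrays.

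Dbp, a transcription factor that acts on D-boxes and is a direct target of the activating pair, varied most. It was at 8.21, 9.29 and 9.36 in TSC22D4 arrays, 9.87, 9.60 and 9.66 in LCN13 arrays, 10.06, 9.79 and 8.09 in arrays given both shRNAs, and 7.62, 7.74 and 9.33 in control arrays. The 4 low arrays lay 1.08 log2 below the other 8, more than the whole spread of those 8, and the full range over 12 arrays was 2.44. Bhlhe40, a repressor that competes at E-boxes and also answers to other signals, was at 10.10, 10.29 and 10.37 in TSC22D4 arrays, 10.48, 10.42 and 10.44 in LCN13 arrays, 10.20, 10.31 and 9.93 in arrays given both shRNAs, and 9.51, 9.78 and 10.25 in control arrays. Its gap was 0.10, and the LCN13 arrays held the 3 highest values.

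The same arrays stood out in 3 other clock genes, Npas2, Hlf and Ciart. Npas2, a partner of Arntl that can stand in for Clock, was highest in the 4 arrays, at 8.13 in TSC22D4 replicate 10, 8.10 in replicate 16 given both shRNAs and 8.18 and 8.08 in control replicates 1 and 2, against 6.91 to 7.45 in the other 8. Hlf, a relative of Dbp, was lowest there (6.43 to 6.61, against 6.86 to 7.64 in the other 8), as was Ciart, an inhibitor of the activating pair (6.24 to 6.44, against 6.61 to 7.38). In all, 3 of 14 measured genes of the list of other clock genes split this way, beside 0.565% of all named genes (131 of 23185), a description with no test. Tef, the third member of the Dbp family, missed this order over 12 arrays. Its values in the 4 arrays were 6.95, 7.10, 7.24 and 6.97, and TSC22D4 replicates 11 and 12, at 7.23 and 7.16, overlapped them. Within groups Tef was lower in the 4 arrays, as Dbp and Hlf were. It was at 7.24 and 6.97 against 7.31 in control arrays, and 6.95 against 7.23 and 7.16 in TSC22D4 arrays. With both shRNAs it was at 7.10 against 7.69 and 7.61. Of the 15 measured genes of the clock output list, 2 split, Klf9 and Tspan4, and of 12 glucocorticoid targets also 2, Klf9 and Zbtb16, each by under 0.09. None of 20 immediate early genes and none of 10 genes that follow feeding split this way. The split asks for extremes over all 12 arrays, so a gene that also differed between groups could miss it. Irs2, of the feeding list, was lower in the 4 arrays than in others of the same group. It was at 8.92 and 8.57 against 9.22 in control arrays, and 8.76 against 9.21 and 8.97 in TSC22D4 arrays. With both shRNAs it was at 9.16 against 9.67 and 10.06. The same held for Fkbp5, of the glucocorticoid list, at 8.81 and 8.96 against 9.43 in control arrays. In TSC22D4 arrays Fkbp5 was at 8.88 against 9.28 and 9.24, and with both shRNAs at 8.86 against 9.07 and 9.13. Wee1, of the clock output list, and Cry2 were also lower in the 4 arrays within these groups. Angptl8 was not, since control replicates 1 and 2, at 9.26 and 9.29, lay above replicate 3, at 8.55. The other genes of these lists were not counted within groups.

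**Figure D2:**
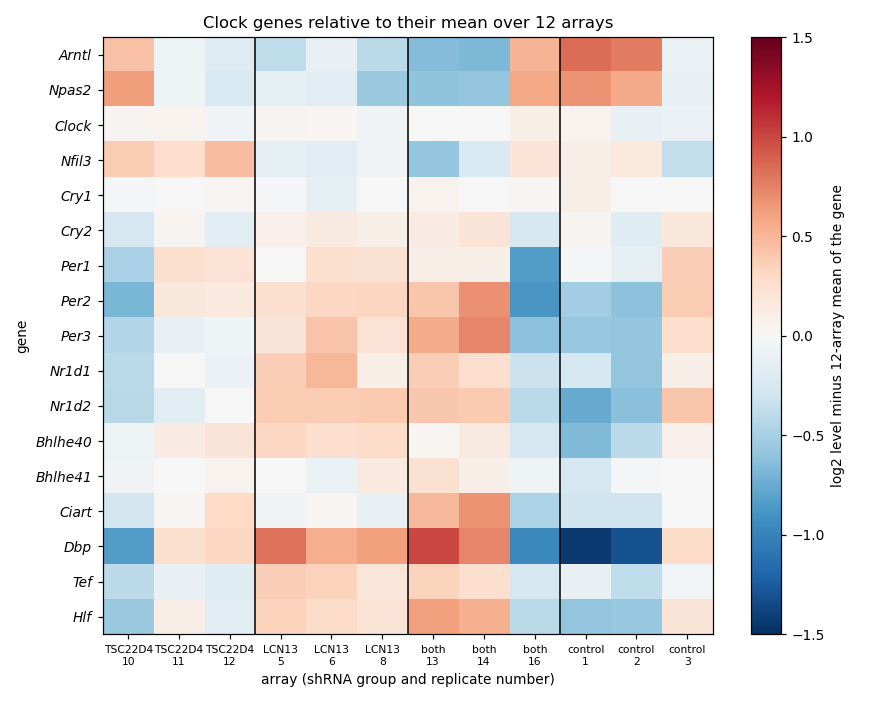
Log2 level minus the gene's own 12-array mean (colour) for the core clock genes and 7 further clock genes (rows) in each array (columns, named by shRNA group and replicate number). TSC22D4 10, both 16, control 1 and control 2 are blue from Per2 to Nr1d2 and at Dbp and Hlf and red at Arntl and Npas2; in the other 8 arrays the first set is mostly red or pale and Arntl and Npas2 are blue or pale, while Clock and Cry1 are pale throughout.

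Cell type markers did not follow the split. The mean of the 9 adipocyte markers, relative to its 12-array mean, ran from -0.078 to 0.066 in the 4 arrays and from -0.092 to 0.073 in the other 8, and that of the 9 macrophage markers from -0.056 to 0.29, against -0.22 to 0.20. The 4 measured red blood cell genes ran from -0.60 to 0.97 in the 4 arrays and from -1.33 to 1.20 in the others. Mesothelial markers ran from -0.42 to 0.096, against -0.33 to 0.71, with the highest values in LCN13 replicates 5 (0.69) and 6 (0.71), and liver genes from -0.34 to -0.098, against -0.25 to 0.44. For each of the 12 marker lists the range in the 4 arrays overlapped that in the other 8.

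The spread between animals of one group was thus far above that of a typical gene for 8 of the members. The residual SD within groups was 0.79 log2 for Dbp, which put it at the 99.7th percentile of all 23185 genes, against a median of 0.0647. Per2 (SD 0.56), Arntl (0.47), Per3 (0.46), Nr1d2 (0.41) and Per1 (0.37) lay at percentiles from 98.9 to 99.5, Nr1d1 (0.29) at 98.2 and Bhlhe40 (0.22) at 96.1. Clock (0.063) at percentile 49.0 and Cry1 (0.046) at percentile 38.8 varied like most genes. These percentiles are over genes of all levels. Cry1 lay at the 49.8th percentile of level, where RMA values are compressed, and Clock at the 98.3rd, so their small spreads cannot be read alike.

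**Figure D3:**
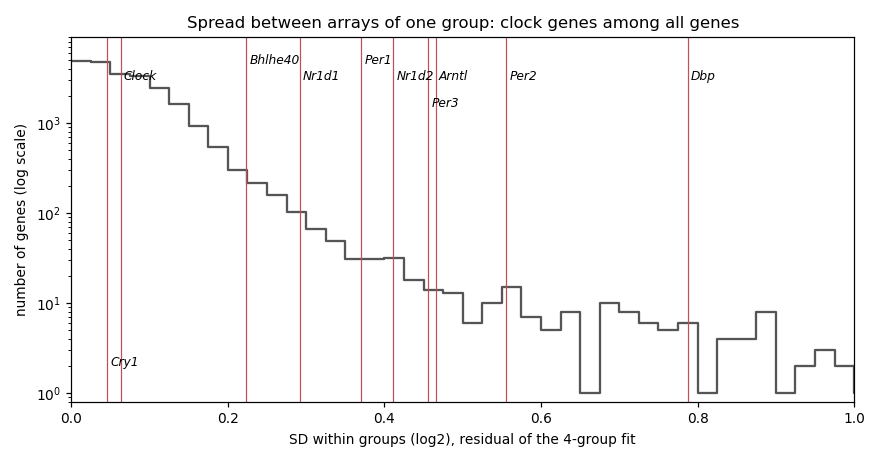
Number of genes (log scale) by SD within groups, in log2 units, from the fit with 1 mean per group; red lines mark the core clock genes, and the axis stops short of the most variable genes. Clock and Cry1 lie among the bulk of genes and the other 8 lie in the upper tail, Dbp farthest out at 0.79.

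The first question the design allows is whether the clock genes differed between the shRNA groups and control. None of the 10 members passed the limma test at an adjusted p under 0.05 in any of the 3 comparisons with control, which share the same control arrays. Over all genes, 1.17% were called with TSC22D4 shRNA, 1.44% with LCN13 shRNA and 1.34% with both. At an unadjusted p under 0.05, 1 member was past the threshold with TSC22D4 shRNA, 6 with LCN13 shRNA and 0 with both, beside 11.8%, 12.6% and 11.0% of all genes. The intervals were wide for the genes that split between arrays, so that sizeable differences in either direction remain possible for several of them.

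With LCN13 shRNA, 6 of the 10 members had 95% intervals that exclude 0. Dbp averaged 9.71 ± 0.14 in LCN13 arrays and 8.23 ± 0.95 in control arrays (SD, n = 3 each), a log2 change of 1.48 (95% interval 0.15 to 2.82, limma adjusted p = 0.337). The 3 LCN13 arrays all lay above the highest control, by less than the distance of control replicate 3 from the other controls. Bhlhe40 averaged 10.45 ± 0.032 in LCN13 arrays and 9.84 ± 0.37 in control arrays, a log2 change of 0.61 (interval 0.23 to 0.99, limma adjusted p = 0.152), also without overlap. Its side of the threshold depended on 1 animal: without control replicate 3 the change was 0.81 and its limma adjusted p 0.0197. With estimated array weights it was 0.65 (limma adjusted p = 0.0413). Without the 4 arrays that stood apart, which leaves control replicate 3 alone and assumes that it varies like the others, the change of Bhlhe40 was 0.20. Arntl averaged 7.37 ± 0.16 in LCN13 arrays and 8.17 ± 0.52 in control arrays, a log2 change of -0.80 (interval -1.59 to -0.013, limma adjusted p = 0.391). Nr1d2 (log2 change 0.70, interval 0.0053 to 1.40) and Nr1d1 (0.57, interval 0.074 to 1.07) were past an unadjusted p under 0.05 but overlapped with control replicate 3. For Nr1d2 the mean was 10.45 ± 0.0063 in LCN13 arrays and 9.75 ± 0.64 in control arrays. Per2 (log2 change 0.55, interval -0.40 to 1.49), Per3 (0.58, interval -0.20 to 1.35), Per1 (0.082, interval -0.55 to 0.71) and Clock (0.054, interval -0.056 to 0.16) had intervals that include 0. Cry1 differed by -0.093 (interval -0.17 to -0.010, limma adjusted p = 0.328). LCN13 and control arrays did not overlap for 4 of the 10 members, Arntl, Cry1, Dbp and Bhlhe40, beside 15.7% of all genes. The median log2 change of the members was 0.56, beside 0.0040 for all genes. Of the arrays compared, 2 of 3 controls and no LCN13 array are among the 4 that stood apart. Without them the log2 changes were 0.38 for Dbp, -0.20 for Arntl, 0.23 for Nr1d1, 0.20 for Bhlhe40 and -0.033 for Nr1d2.

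TSC22D4 shRNA was set against control in the same way. Dbp averaged 8.96 ± 0.64 in TSC22D4 arrays and 8.23 ± 0.95 in control arrays, a log2 change of 0.73 (interval -0.61 to 2.06, limma adjusted p = 0.726). Bhlhe40 was at 10.25 ± 0.14 in TSC22D4 arrays and 9.84 ± 0.37 in control arrays, a log2 change of 0.41 (interval 0.031 to 0.79, limma adjusted p = 0.378). Arntl differed by -0.45 (interval -1.24 to 0.34), Per2 by 0.13 (interval -0.81 to 1.07), Per3 by 0.092 (interval -0.68 to 0.87), Per1 by -0.081 (interval -0.71 to 0.55), Nr1d1 by 0.086 (interval -0.41 to 0.58) and Nr1d2 by 0.13 (interval -0.57 to 0.82). Clock differed by 0.061 (interval -0.050 to 0.17) and Cry1 by -0.032 (interval -0.11 to 0.050). The groups overlapped for all 10 members, beside 16.6% of all genes without overlap, and the median change was 0.089, beside -0.0022 for all genes. Without the 4 arrays that stood apart, Per2, Per3, Nr1d1 and Nr1d2 had changes of the other sign (-0.22, -0.35, -0.14 and -0.50). In that fit Dbp differed by 0.0, Arntl by -0.033 and Bhlhe40 by 0.087. Leaving out 1 array moved the change of Dbp between 0.42, without control replicate 1, and 1.28, without control replicate 3.

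With both shRNAs, Dbp averaged 9.31 ± 1.07, against 8.23 ± 0.95 in control arrays, a log2 change of 1.08 (interval -0.25 to 2.42, limma adjusted p = 0.596). Arntl averaged 7.40 ± 0.67 with both shRNAs and 8.17 ± 0.52 in control arrays, a log2 change of -0.77 (interval -1.56 to 0.016, limma adjusted p = 0.467). The large SD of the group given both shRNAs came from replicate 16, which lay with control replicates 1 and 2. Per3 differed by 0.52 (interval -0.25 to 1.29), Nr1d2 by 0.45 (interval -0.24 to 1.15), Nr1d1 by 0.35 (interval -0.14 to 0.85), Per2 by 0.33 (interval -0.61 to 1.27) and Bhlhe40 by 0.30 (interval -0.080 to 0.68). Per1 differed by -0.29 (interval -0.92 to 0.34), Clock by 0.075 (interval -0.035 to 0.19) and Cry1 by -0.0052 (interval -0.087 to 0.077). All 10 members overlapped, beside 14.9% of all genes without overlap, and the median change was 0.32, beside 0.0015 for all genes. The log2 changes without the 4 arrays were 0.60 for Dbp, -0.56 for Arntl, 0.38 for Per3, 0.22 for Nr1d1, 0.17 for Per2, 0.0059 for Bhlhe40 and -0.012 for Nr1d2. Leaving out replicate 14 given both shRNAs left 0.024 for Per2 and 0.26 for Per3, against 0.80 and 0.94 without replicate 16.

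**Figure D4:**
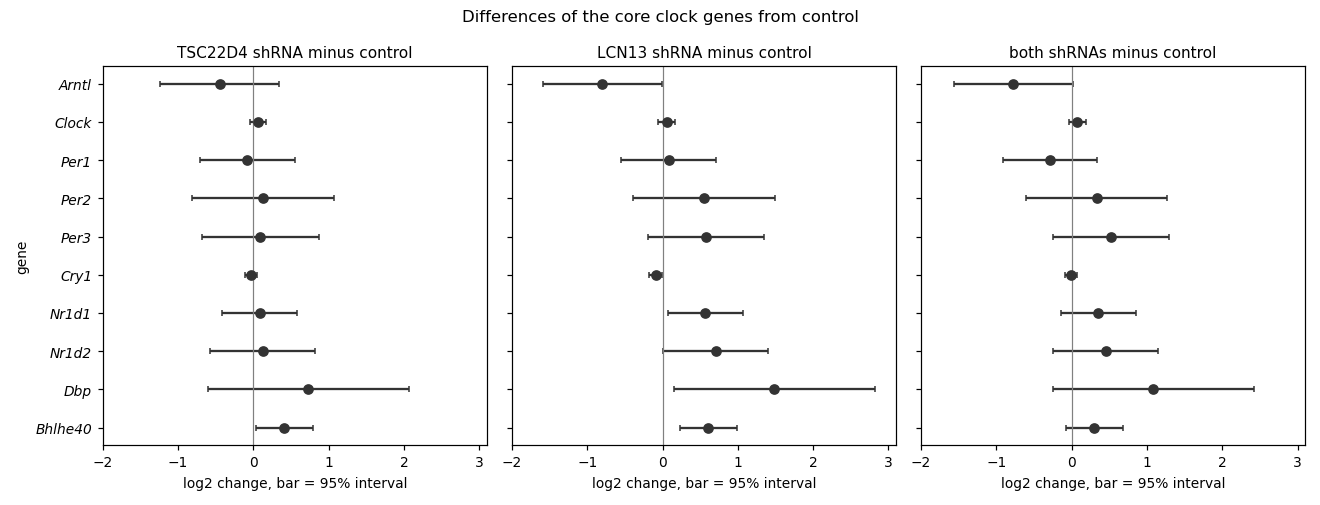
Log2 change from control of each core clock gene (rows) with TSC22D4 shRNA, LCN13 shRNA and both shRNAs (panels); points are limma estimates from 3 arrays per group and bars 95% intervals. Clock and Cry1 have narrow intervals near 0, Dbp has the widest, and Bhlhe40 with LCN13 shRNA lies farthest from 0 for its interval, at 0.61 (0.23 to 0.99), with an adjusted p of 0.152 over all genes.

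The shRNA groups were also compared with one another. TSC22D4 arrays lay below all LCN13 arrays for 6 of 10 members, Per2, Per3, Nr1d1, Nr1d2, Dbp and Bhlhe40, beside 25.2% of all genes without overlap in either direction. None passed the limma test (lowest adjusted p 0.293, for Nr1d1, with a log2 change of -0.48 ± 0.22 SE), beside 1.03% of all genes called. The place of TSC22D4 replicate 10 below the LCN13 arrays follows from the split, which was recognised from these genes. That of TSC22D4 replicates 11 and 12 does not follow from it. For Per1, which also split, they lay at 10.76 and 10.73, above LCN13 replicate 5 at 10.51. For Nr1d2 TSC22D4 replicates 11 and 12 lay at 9.90 and 10.08, and the 3 LCN13 arrays at 10.45 and 10.46. In the fit without the 4 arrays the log2 change of Nr1d2 was -0.47, and those of Nr1d1, Per3, Dbp and Bhlhe40 were -0.37, -0.37, -0.38 and -0.12. Arrays given both shRNAs did not overlap with LCN13 arrays for 2 of 10 members, Cry1 higher by 0.088 (limma adjusted p = 0.437) and Bhlhe40 lower, with a log2 change of -0.31 (limma adjusted p = 0.558), beside 16.5% of all genes without overlap and 0.00863% called. Against TSC22D4 arrays, all members of the group given both shRNAs overlapped (14.5% of all genes did not), and the lowest limma adjusted p was 0.858, with 0% of all genes called. In the fit that left out the 4 arrays, differences of the group given both shRNAs from LCN13 arrays ran from -0.36 for Arntl to 0.36 for Per3. From TSC22D4 arrays they ran from -0.53 for Arntl to 0.73 for Per3.

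With 4 groups, each shRNA was also averaged over the presence of the other, and the interaction was tested, that is, whether the difference made by TSC22D4 shRNA depended on LCN13 shRNA. No member passed for the averaged TSC22D4 effect (1.39% of all genes called), the averaged LCN13 effect (1.08%), the interaction (0.397%) or any difference over the 4 groups (1.61%). For the averaged LCN13 effect, Arntl (-0.57), Nr1d1 (0.42) and Nr1d2 (0.52) were past an unadjusted p under 0.05, as were 13.7% of all genes, with limma adjusted p-values of 0.359, 0.281 and 0.345. For the interaction, 2 members were past an unadjusted p under 0.05, beside 7.08% of all genes. These were Bhlhe40, at -0.72 ± 0.24 (SE, limma unadjusted p = 0.0143, adjusted 0.503), and Cry1, at 0.12 ± 0.052 (SE, limma unadjusted p = 0.0453, adjusted 0.691). The interaction of Dbp was -1.13 ± 0.84 (SE, limma adjusted p = 0.906), which leaves a wide range of values possible. In the fit without the 4 arrays, the averaged LCN13 effect was -0.36 for Arntl, 0.29 for Nr1d1 and 0.23 for Nr1d2, and the interaction -0.28 for Bhlhe40, 0.089 for Cry1 and 0.21 for Dbp. That fit keeps 1 control array and leaves out arrays chosen by these same genes, so it is no test of the members.

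The order of the group means was read for each gene. Dbp, Per3 and Nr1d2 averaged highest in LCN13 arrays (9.71, 7.69 and 10.45), then with both shRNAs (9.31, 7.63 and 10.20), then in TSC22D4 arrays (8.96, 7.21 and 9.88), and lowest in control arrays (8.23, 7.11 and 9.75). Per2 and Nr1d1 had the same order, at 7.99, 7.77, 7.57 and 7.44 for Per2 and 12.15, 11.93, 11.66 and 11.57 for Nr1d1. Arntl ran the other way, with 7.37 in LCN13 arrays, 7.40 with both shRNAs, 7.73 in TSC22D4 arrays and 8.17 in control arrays. No 2 neighbours in these orders differed by more than the SD of the more variable of the 2 groups. The orders use all 12 arrays; without the 4 that stood apart, the group given both shRNAs lay highest for Dbp, 0.60 above control, with LCN13 arrays 0.38 above it.

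Whether the members varied together was examined within the 8 arrays that did not stand apart, because a correlation over all 12 would describe the gap between the 2 clusters. Of 45 pairs, 1 passed after Benjamini-Hochberg adjustment: Per2 and Per3, with Pearson's r = 0.914 (exact permutation p = 0.000744, adjusted 0.0335) and Spearman's rho = 0.905 (exact permutation p = 0.00456, adjusted 0.161). Without the 2 arrays farthest from the median of Per2, r was 0.86 over 6 arrays. The highest Per2 and Per3 levels of these 8 arrays were those of replicate 14 given both shRNAs, and the lowest Per3 levels those of TSC22D4 replicates 11 and 12. Arntl and Dbp had r = -0.856 (exact permutation p = 0.0108, adjusted 0.242) and rho = -0.857, and r = -0.801 without the 2 farthest arrays, so this relation did not pass over the 45 pairs. The 8 arrays were kept because of the levels of these same genes, and the permutation moved values freely between groups. Differences between groups can therefore add to r, and these p-values describe the 8 arrays and are not a test of the pair. The relation within single groups of 2 or 3 arrays cannot be tested.

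Among 10979 other genes above the median level, those most like Dbp over the 12 arrays by Pearson's r were Hlf (r = 0.952), Asap1 (0.927), Nkrf (0.926), Herpud1 (0.912) and Cnot1 (0.906). Those most unlike it were Adamts4 (-0.975), Npas2 (-0.947), Tomm40l (-0.857), Tecpr1 (-0.855) and Plod3 (-0.848). Most like Arntl were Npas2 (0.965), Adamts4 (0.946), Tomm40l (0.852), Dusp10 (0.849) and Spon2 (0.842), and most unlike it Hlf (-0.946), Nipbl (-0.929), Smad7 (-0.920), Asap1 (-0.917) and Gstt2 (-0.906). These values rank genes and carry no test, since the gap between the 4 arrays and the other 8 sets much of them. Within the 8 arrays, r with Dbp was 0.846 for Hlf, -0.729 for Adamts4 and 0.159 for Herpud1, and r with Arntl was 0.876 for Npas2, 0.899 for Dusp10, 0.421 for Tomm40l and 0.221 for Spon2. Adamts4, which encodes a secreted protease that cuts cartilage-type proteoglycans, was at 6.94, 6.54 and 6.67 in TSC22D4 arrays, 6.34, 6.53 and 6.39 in LCN13 arrays, 6.32, 6.45 and 6.97 in arrays given both shRNAs, and 7.13, 7.02 and 6.42 in control arrays. It was thus highest in the same 4 arrays.

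The other genes of the clock were tested beside the members. None of the 14 measured genes of the list of other clock genes was called against control in the TSC22D4, LCN13 or combined group by limma, with 2, 2 and 1 past an unadjusted p under 0.05 and median changes of 0.025, 0.025 and 0.065. With LCN13 shRNA against control, the log2 changes were -0.66 for Npas2 (limma adjusted p = 0.501), 0.60 for Hlf (0.462) and 0.48 for Tef (0.222). With both shRNAs they were -0.58 for Npas2, 0.57 for Hlf and 0.43 for Ciart, and with TSC22D4 shRNA 0.41 for Nfil3, a repressor that acts on the same D-boxes as Dbp, and -0.26 for Npas2. Leaving out the 4 arrays, the differences from control with LCN13 shRNA were -0.18 for Npas2, 0.089 for Hlf and 0.34 for Tef, with both shRNAs -0.48 for Npas2, 0.385 for Hlf and 0.585 for Ciart, and with TSC22D4 shRNA 0.73 for Nfil3 and -0.031 for Npas2, with no test.

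Of 15 measured clock output genes, 1 was called in each of the 3 comparisons with control, and it was Nampt each time. Nampt encodes the enzyme that limits NAD salvage and is driven by the activating pair. It was at 10.58, 10.58 and 10.69 in TSC22D4 arrays, 10.53, 10.49 and 10.49 in LCN13 arrays, 10.59, 10.59 and 10.47 in arrays given both shRNAs, and 11.03, 11.02 and 10.80 in control arrays. Every shRNA array lay below every control array. Nampt fell with LCN13 shRNA (log2 change -0.45 ± 0.061 SE, limma adjusted p = 0.00636), with both shRNAs (-0.40, limma adjusted p = 0.0135) and with TSC22D4 shRNA (-0.33, limma adjusted p = 0.0365). The LCN13 call held without each array in turn, whereas that with both shRNAs was lost in 2 of 12 such fits, without control replicate 2 or replicate 16 of the group itself. The TSC22D4 call was lost in 9 of 12 and kept only without control replicate 3, LCN13 replicate 8 or replicate 16 given both shRNAs. For the LCN13 effect averaged over TSC22D4 shRNA, Nampt had a log2 change of -0.26 (limma adjusted p = 0.0271), a call lost in 9 of 12 such fits (limma adjusted p up to 0.0736) and without the 4 arrays that stood apart (-0.17, limma adjusted p = 0.16). Without the 4 arrays that stood apart in the clock genes the changes were -0.30, -0.21 and -0.17 with LCN13 shRNA, both and TSC22D4 shRNA, and none passed (limma adjusted p-values 0.104, 0.226 and 0.308). Gys2, the liver-type glycogen synthase, which Clock drives in mouse liver, was at 9.62, 9.75 and 9.71 in TSC22D4 arrays, 7.50, 7.71 and 8.66 in LCN13 arrays, 9.18, 9.05 and 9.65 in arrays given both shRNAs, and 8.47, 8.61 and 8.12 in control arrays. It was higher for the TSC22D4 effect averaged over LCN13 shRNA (log2 change 1.31, limma adjusted p = 0.0158) and with TSC22D4 shRNA against LCN13 shRNA (1.74, limma adjusted p = 0.036, lost in 6 of 12 fits without 1 array), and did not pass in the comparisons with control. Without the 4 arrays that stood apart, a fit that keeps 1 control array, these changes of Gys2 were 1.38 and 1.77. These sizes do not show that the calls held.

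Genes of feeding and of glucocorticoid action were listed because both change with the hour and with handling. Of 10 measured feeding genes, 2 rose and 1 fell with TSC22D4 shRNA against control, 1 fell with LCN13 shRNA and none passed with both. Angptl8, a feeding-induced regulator of lipoprotein lipase, rose with TSC22D4 shRNA by 1.70 log2 (limma adjusted p = 0.0155), at 10.69, 10.94 and 10.55 in TSC22D4 arrays and 9.26, 9.29 and 8.55 in control arrays. Srebf1, a driver of fat synthesis, rose by 0.47 (limma adjusted p = 0.022). Pdk4, an inhibitor of pyruvate dehydrogenase that rises with fasting and glucocorticoids, was the gene that fell in both of these comparisons and is on both lists. Its log2 change was -0.82 with TSC22D4 shRNA (limma adjusted p = 0.0243) and -0.78 with LCN13 shRNA (limma adjusted p = 0.0269). Angptl8 also passed for the TSC22D4 effect averaged over LCN13 shRNA (0.93, limma adjusted p = 0.0481, lost in 10 of 12 fits without 1 array). Against control, its call was lost without TSC22D4 replicate 10 or 11, and those of Srebf1 and Pdk4 with TSC22D4 shRNA without any 1 of the TSC22D4 arrays or without control replicate 1 or 3. The call of Pdk4 with LCN13 shRNA was lost without control replicate 1 or 3, LCN13 replicate 6 or 8, or TSC22D4 replicate 10. None of these calls passed without the 4 arrays that stood apart, where the changes were 2.20 for Angptl8 and 0.54 for Srebf1, and for Pdk4 -0.85 with TSC22D4 shRNA and -0.78 with LCN13 shRNA. Replicate 10 was the lowest of the TSC22D4 arrays for Dbp, and its Angptl8 level lay between those of replicates 11 and 12. Among control arrays, by contrast, replicates 1 and 2 lay above replicate 3 for Angptl8. With both shRNAs, replicate 16, at 9.93, lay above replicates 13 and 14, at 9.69 and 9.10. Whether Angptl8 followed the split within groups was not tested.

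Of 12 glucocorticoid genes, Pdk4 alone was called in the comparisons with control (1 with TSC22D4 shRNA, 1 with LCN13 shRNA and 0 with both). Dusp1, a phosphatase induced by glucocorticoids and stress, had log2 changes of -0.38, -0.47 and -0.45 with TSC22D4 shRNA, LCN13 shRNA and both, with limma adjusted p-values of 0.189, 0.0954 and 0.112. Cdkn1a, a cell cycle inhibitor, fell for the LCN13 effect averaged over TSC22D4 shRNA (-0.21, limma adjusted p = 0.0489), a call kept in 1 of 12 fits that left out 1 array, the one without replicate 16 given both shRNAs. Its change was -0.23 without the 4 arrays that stood apart, a size that does not show that the call held. None of 20 immediate early genes, which answer to handling within minutes, was called against control. Fos had log2 changes of -0.31, -0.58 and -0.30 with TSC22D4 shRNA, LCN13 shRNA and both (limma adjusted p-values 0.694, 0.345 and 0.776), and 2, 5 and 4 of the list were past an unadjusted p under 0.05. Ier3 fell for the TSC22D4 effect averaged over LCN13 shRNA (-0.31, limma adjusted p = 0.0481), a call lost in 9 of 12 fits that left out 1 array and kept without control replicate 1, LCN13 replicate 8 or replicate 14 given both shRNAs. The change of Ier3 was -0.41 without the 4 arrays that stood apart, which likewise does not show that its call held.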

How the data were processed

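RNA of abdominal fat was measured on 12 arrays (4 groups of 3). The authors deposited 1 log2 value per probe set and array, made with RMA per the submitters' processing notes; no source used here gives its version, settings or probe definitions. Sorted columns differ by at most 0.00188, so any shift shared by most genes has been removed. Of 25206 probe sets, 23185 carry 1 symbol and were tested without a filter on level. The members and lists were chosen with earlier results of these data known.

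All 12 arrays were fitted in R 4.3.3 with limma 3.58.1 (default lmFit, contrasts.fit and eBayes, two-sided) and 1 mean per group, and genes were called at a Benjamini-Hochberg adjusted p under 0.05 over 23185 genes. Tested on simulated data for TSC22D4 shRNA against control, it recovered 99.1% of 106 genes changed by 1 log2 unit and all 94 changed by 2, with 15 false calls over 23185 genes. The changed genes were drawn at random from all genes, with independent noise at each gene's own SD (median 0.0647). These rates therefore do not carry over to members with a large spread, such as Dbp (SD 0.79), for which smaller power must be assumed. The number of arrays limits the precision. Correlations used exact permutation over 8 arrays (SciPy 1.17.1). A pooled correlation over 12 arrays had been planned; the 8-array version, and the fit without 4 arrays, were chosen after seeing the data. All members are named; from other lists, genes that passed and up to 3 with the widest change; likeness takes the 5 highest and 5 lowest r.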

Additional observations from a re-analysis of the deposited data

Results flagged for a closer look

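Pdk4, an inhibitor of pyruvate dehydrogenase, stood out because the difference made by TSC22D4 shRNA was not the same with and without LCN13 shRNA in the interaction test. It was at 10.61, 10.52 and 10.54 in TSC22D4 arrays, 10.77, 10.63 and 10.39 in LCN13 arrays, 11.38, 11.35 and 10.95 in arrays given both shRNAs, and 11.57, 11.19 and 11.38 in control arrays. Each single shRNA group lay below all control arrays, and the group given both overlapped with control. The interaction was 1.45 ± 0.20 log2 (SE, limma adjusted p = 0.0148). It ranged from 1.35 to 1.59 without each array in turn, with limma adjusted p-values up to 0.0535, and the call was lost in 3 of 12 fits, without TSC22D4 replicate 10 or 11 or replicate 14 given both shRNAs. Without the 4 arrays that stood apart in the clock genes it was 1.62 (limma adjusted p = 0.0972).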

How the results depend on the processing

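No paired analysis was possible because the replicate numbers differ between all groups. The count of 0 called members held in every comparison run under each setting, with 1 exception. The settings, with 10 comparisons each, were a filter on dim probe sets, array weights, a trended robust prior, centring and each array left out. The arrays of each contrast alone allowed 6, with no counterpart for effects over all groups. The exception was LCN13 shRNA against control, which gave 1, Bhlhe40, with array weights, and 0 to 1 over the fits without 1 array. That 1 was without control replicate 3. The fit without the 4 arrays that stood apart was left out of this count, since it could not test the members. There were 540 values of members against control under the alternatives, those of the fit without the 4 arrays among them. Of these, 511 kept their sign and side of the threshold, 2 passed anew (both Bhlhe40) and 27 turned sign without a call. The cause was not tested. With array weights, Cry1 with both shRNAs was 0.012. Without the 4 arrays, which leaves 1 control array assumed to vary like the others, the values were, with TSC22D4 shRNA, -0.22 for Per2, -0.35 for Per3, 0.00342 for Cry1, -0.14 for Nr1d1 and -0.50 for Nr1d2; with LCN13 shRNA, -0.21 for Per1, -0.085 for Per2 and -0.033 for Nr1d2; and with both, 0.023 for Cry1 and -0.012 for Nr1d2. Without each array in turn, TSC22D4 values ranged from -0.21 to 0.16 for Per1, -0.0495 to 0.45 for Per2, -0.0494 to 0.37 for Per3, -0.081 to 0.26 for Nr1d1 and -0.091 to 0.49 for Nr1d2; with LCN13 shRNA, Per1 ranged from -0.022 to 0.23; and with both, Per1 from -0.45 to 0.024 and Cry1 from -0.021 to 0.023. The planned correlations over 12 arrays passed in 23 of 45 pairs, in 29 with deviations from group means and in 22 to 25 without each array, but in 1 over the 8 arrays that did not stand apart, a fit of fewer samples without the gap between the clusters. Of 246 values of the called genes of other lists, 149 stayed called and 97 did not, all with the same sign.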
